A study of Homo sapiens with 2 samples.

Results

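Of the genes that handle zinc, 10 were described in BE(2)-C cells, an established human neuroblastoma line with an amplified MYCN gene. They encode the zinc exporters SLC30A1, SLC30A5 and SLC30A9, the zinc importers SLC39A6, SLC39A10 and SLC39A14, the metallothioneins MT2A, MT1X and MT1E, and the zinc-sensing transcription factor MTF1. They were taken by symbol, and all 10 were found among the 16005 genes of the deposited table. Wild-type BE(2)-C cells were kept for 7 days either in EMEM/F12, a classical culture medium, or in HPLM, a medium made to resemble human plasma. Both media held 10% fetal bovine serum and 1% penicillin-streptomycin. Polyadenylated RNA was sequenced, and the series lists 1 sample per medium with 3 library columns each. Separate cultures are not named for the 3 libraries of a medium, and p-values therefore measure only the spread between libraries, which may be technical. All values come from this 1 cell line.

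Zinc is a structural and catalytic part of many proteins, and cells keep free zinc in the cytosol very low. Proteins of the SLC30 (ZnT) family move zinc out of the cytosol, across the cell surface or into organelles, and proteins of the SLC39 (ZIP) family move it into the cytosol. Metallothioneins are small cysteine-rich proteins that bind zinc, copper and cadmium. MTF1 binds metal response elements in DNA when zinc is high and activates metallothionein genes and SLC30A1.

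Each library held between 17504237 and 21676080 reads. All 10 adrenergic neuroblastoma markers were measured, with summed levels of 219344 to 258871 normalised reads in EMEM/F12 and 185205 to 192733 in HPLM. The sum joins opposite changes. Mean CHGA was 83882 normalised reads in EMEM/F12 and 105221 in HPLM, and mean MYCN was 72489 and 29419. At a DESeq2 adjusted p under 0.05 in the authors' deposited table, 2 of the 10 were higher in HPLM and 8 lower. Of all genes 26.8% were higher and 28.8% lower. No endothelial or blood marker of the 4 listed for each was in the table, and the epithelial markers summed to at most 305 normalised reads. EMEM/F12 library 3 stood apart, with 345 genes at least 2-fold above both other libraries of its medium, against 13 to 18 genes in each of the other 5 libraries. In the same library the 6 fibroblast markers summed to 85506 normalised reads, against 36611 and 38965 in EMEM/F12 libraries 1 and 2 and 66025 to 73701 in HPLM. COL1A1 made up most of that sum, with 53749.7 normalised reads in EMEM/F12 library 3. The markers PDGFRB and LUM showed no such step and were lower in HPLM. Results that rest on EMEM/F12 library 3 are given below with and without it.

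The 250 bases upstream of the start site are shown for 3 known target genes of MTF1, the metallothionein genes MT2A and MT1X and the exporter gene SLC30A1, because these genes carry the results that follow. The metal response element core was searched as TGCACNC and TGCGCNC on both strands. Capitals mark each match on either strand, and no matches overlapped. Sequences are those of RefSeq on GRCh38.p14, 5′ to 3′ along the gene.
MT2A, chr16:56608334-56608583, plus strand: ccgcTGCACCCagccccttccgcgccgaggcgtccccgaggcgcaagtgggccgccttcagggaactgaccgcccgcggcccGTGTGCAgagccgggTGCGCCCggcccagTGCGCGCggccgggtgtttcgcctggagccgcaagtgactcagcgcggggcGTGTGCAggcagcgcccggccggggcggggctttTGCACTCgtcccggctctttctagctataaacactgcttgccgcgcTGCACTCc
MT1X, chr16:56682220-56682469, plus strand: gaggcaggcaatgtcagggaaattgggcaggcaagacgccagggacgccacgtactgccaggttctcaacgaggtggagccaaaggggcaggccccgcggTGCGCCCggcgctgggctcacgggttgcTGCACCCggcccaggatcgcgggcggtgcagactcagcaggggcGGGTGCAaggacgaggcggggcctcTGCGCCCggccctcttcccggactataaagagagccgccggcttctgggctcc
SLC30A1, chr1:211579162-211579411, minus strand: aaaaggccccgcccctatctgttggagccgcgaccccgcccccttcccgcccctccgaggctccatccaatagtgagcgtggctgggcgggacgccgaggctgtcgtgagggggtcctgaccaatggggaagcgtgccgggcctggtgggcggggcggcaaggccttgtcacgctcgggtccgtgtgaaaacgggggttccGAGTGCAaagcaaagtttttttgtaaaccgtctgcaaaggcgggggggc

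The MT2A window held 7 matches, 5 on the strand of the gene and 2 on the other. MT1X held 4 matches, 3 on the strand of the gene and 1 on the other. SLC30A1 held 1 match, on the other strand, 43 to 49 bases before the start, and SLC39A6 held 1 match at 11 to 17 bases before the start. SLC30A5, SLC30A9, SLC39A10 and MTF1 held none in their windows. Among 34943 RefSeq windows of the same length, 24.8% held at least 1 match, 0.369% held at least 4 and 0.0315% held at least 7. The table matched 8 of the 10 genes, and SLC39A14 and MT1E were the other two. The MT2A window lies inside the GENCODE gene, which begins at 56608199, and the MT1X window reaches past the GENCODE start at 56682424. That of SLC30A1 lies outside its gene, which begins at 211578742 on the minus strand, and the bases between were not searched. The windows thus sit differently around the GENCODE starts, which limits a comparison of their match counts. A match of these letters is a description and not a measured binding site.

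**Figure D1:**
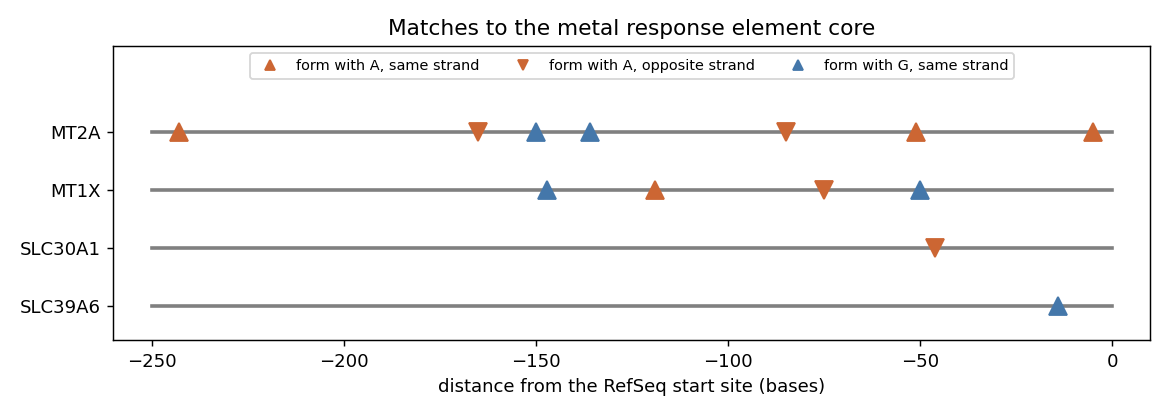
Positions of matches to the metal response element core in the 250 bases before the RefSeq start site (horizontal axis, bases) of the 4 genes with a match. Triangles pointing up are matches on the strand of the gene and triangles pointing down on the other, in orange for TGCACNC and blue for TGCGCNC. MT2A holds 7, MT1X 4, SLC30A1 and SLC39A6 1 each.

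In HPLM the cell-surface and secretory-pathway exporter genes SLC30A1 and SLC30A5 were higher, as were the importer gene SLC39A10 and MTF1. SLC30A1 rose most among these, 1.48-fold. Rise and fall are used for genes under 0.05 by the DESeq2 adjusted p of the authors' deposited table. By that rule 4 of the 10 genes rose and 0 fell. Over all 16004 genes with a p-value, 55.6% passed, with 26.8% higher and 28.8% lower in HPLM. The 4 of 10 lie below the share that passed in either direction and above the share that was higher, and with 10 genes neither is read as a result about them. At an unadjusted p under 0.05 the authors' deposited table gives 5 higher and 0 lower. edgeR called 5 of the 10 higher and 0 lower, where 64.1% of all genes passed and 32.8% were higher. limma called 6 higher and 0 lower, where 64.0% of all genes passed and 31.3% were higher. The median log2 ratio was 0.35 for the 10 genes and 0.0086 over all genes tested. In 5 of the 10 genes the libraries of HPLM all lay above those of EMEM/F12, and in the other 5 the media overlapped. Over all genes the media did not overlap in 68.6%, with HPLM above in 33.6% and below in 35.0%.

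**Figure D2:**
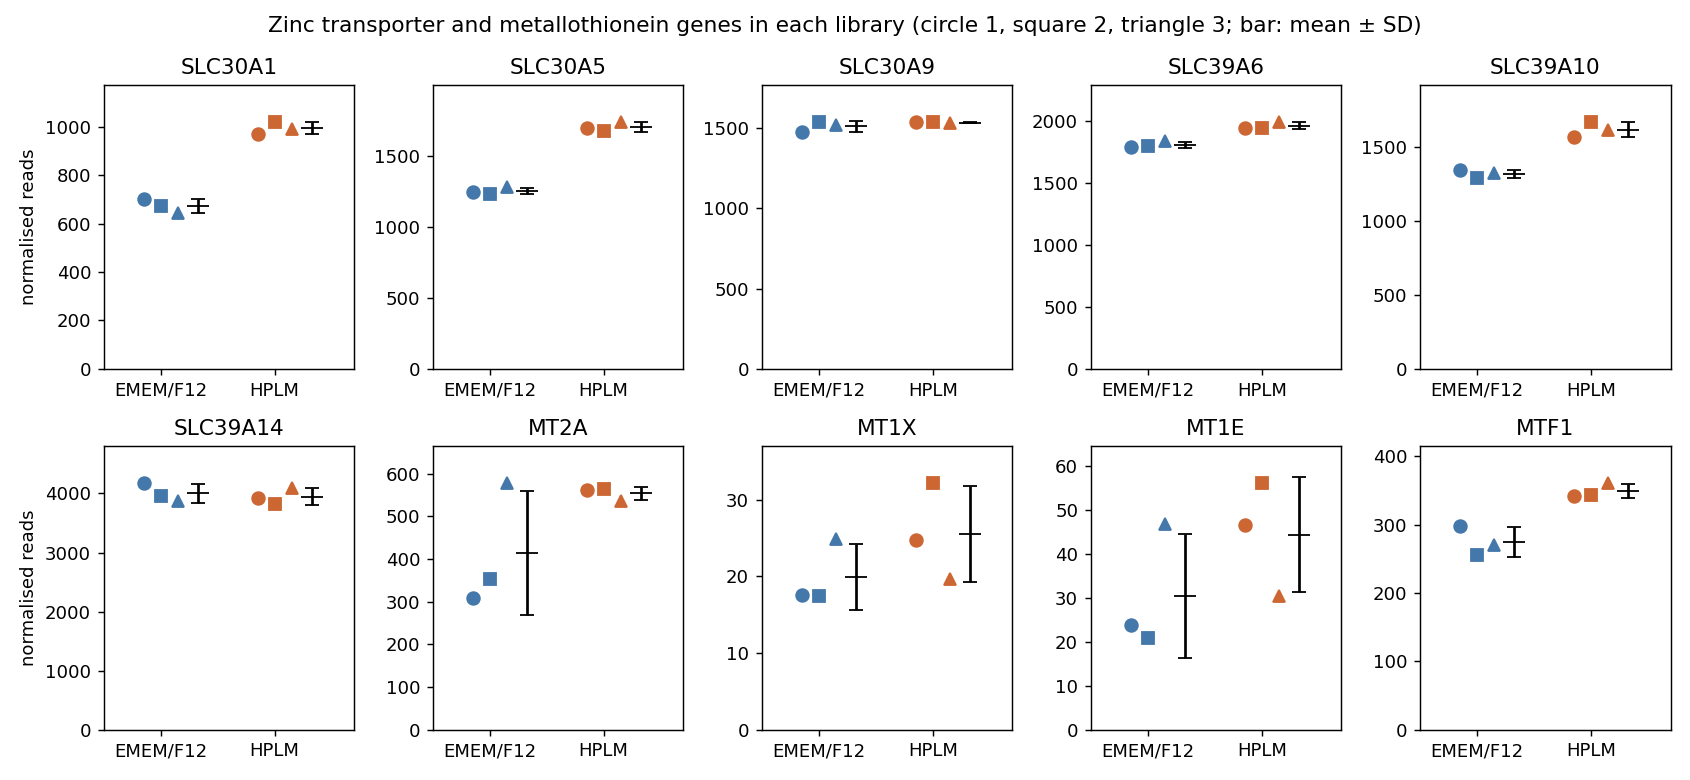
Normalised reads (vertical axes, each from 0) of the 10 genes in the 3 EMEM/F12 libraries (blue) and the 3 HPLM libraries (orange), with circles for library 1, squares for 2 and triangles for 3, and the mean ± SD in black. SLC30A1, SLC30A5, SLC39A6, SLC39A10 and MTF1 do not overlap between media, and the MT2A triangle of EMEM/F12 lies at 579, at the level of HPLM.

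SLC30A1 encodes the exporter of the cell surface, the main route of zinc out of the cell (ENSG00000170385, chromosome 1, 211571568 to 211578742, GRCh38). It gave 699.8, 672 and 645 normalised reads in EMEM/F12 libraries 1, 2 and 3, and 972, 1019.7 and 989.7 in HPLM libraries 1, 2 and 3. The lowest HPLM library lay well above the highest EMEM/F12 library. The means were 672 ± 27.4 and 994 ± 24.1 (SD, n = 3 libraries), a log2 ratio of 0.56 ± 0.04 (SE). The authors' deposited table gives an adjusted p of 5.20e-13, and the gene was called under all 15 alternatives tried. EMEM/F12 library 3 held the lowest SLC30A1 value, which enlarges the ratio. Without that library SLC30A1 was still called, with a DESeq2 log2 fold change of 0.53 ± 0.07 (adjusted p = 1.59e-12), against 0.56 with all libraries.

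SLC30A5 encodes a large exporter of the early secretory pathway that works as a pair with SLC30A6 (ENSG00000145740, chromosome 5, 69093646 to 69131069). Its libraries gave 1246, 1233 and 1277 normalised reads in EMEM/F12 and 1694, 1673 and 1737 in HPLM. The media did not overlap, and within a medium the libraries lay within a few percent of each other. The log2 ratio was 0.44 ± 0.02, with an adjusted p of 6.03e-13 in the authors' deposited table. An antisense transcript, AC010273.1, shares 532 bases or 9.20% of the annotated exon sequence of SLC30A5, and since the library kit does not mark strand its reads cannot be told apart there.

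The partner gene SLC30A6 rose from 763 ± 46.2 to 1022 ± 7.49 normalised reads, a log2 ratio of 0.42 ± 0.05. The ratio of SLC30A5 to SLC30A6 reads was 1.64 ± 0.0982 in EMEM/F12 and 1.66 ± 0.0429 in HPLM (exact two-sided permutation p = 0.8, n = 3 libraries each, where the smallest possible p is 0.1). SLC30A7, which encodes the other exporter of the early secretory pathway, rose by 0.34 ± 0.04 on the log2 scale. SLC30A5, its partner gene SLC30A6 and SLC30A7 were thus all higher in HPLM, with log2 ratios between 0.34 and 0.44. Whether these ratios differ from each other was not tested across all 3 genes.

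SLC30A9 encodes an exporter of mitochondria (ENSG00000014824, chromosome 4, 41990472 to 42090457). It gave 1471, 1534 and 1518 normalised reads in EMEM/F12 and 1536, 1532 and 1527 in HPLM. The media overlapped, with a log2 ratio of 0.02 ± 0.02 and an adjusted p of 0.762 in the authors' deposited table.

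Among the other exporter genes, SLC30A4, which encodes an exporter of endosomes and lysosomes, rose from 111 ± 10.3 to 147 ± 3.81 normalised reads (log2 ratio 0.40 ± 0.08). Its call was lost under 7 of the 15 alternatives, among them without EMEM/F12 library 3 (adjusted p = 0.0709), without EMEM/F12 library 1 (adjusted p = 0.117), and without HPLM library 1, 2 or 3 (adjusted p = 0.101, 0.0800 and 0.118), all by DESeq2. SLC30A3, which encodes the exporter of synaptic vesicles, was at 18.7 ± 2.22 normalised reads in EMEM/F12 and 9.21 ± 0.817 in HPLM, and did not pass in the authors' deposited table (adjusted p = 0.0878). SLC30A8, known as the exporter of insulin granules, was at 40.6 ± 7.25 and 53.7 ± 1.55 normalised reads and did not pass either. In all, 5 of the 8 measured SLC30 genes rose and 0 fell, against background shares of 26.8% and 28.8%. At an unadjusted p under 0.05 the authors' deposited table also gives 0 lower, while edgeR and limma each called 1 lower, SLC30A3 (edgeR adjusted p = 0.00945).

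The importer genes were split. SLC39A6 encodes a surface importer known as an estrogen-regulated gene, and its product pairs with that of SLC39A10 (SLC39A6: ENSG00000141424, chromosome 18, 36108532 to 36129385). SLC39A6 gave 1784, 1791 and 1834 normalised reads in EMEM/F12 and 1943, 1943 and 1988 in HPLM. The media did not overlap, but the step was small, with a log2 ratio of 0.12 ± 0.02. The authors' deposited table gives an adjusted p of 0.0503, just past the threshold, and 7 of the 15 alternatives called it. These included edgeR (adjusted p = 0.00410) and DESeq2 without EMEM/F12 library 3 (adjusted p = 0.0191). The adjusted p over the 15 alternatives ranged from 0.00404 to 0.452, with the highest under spike-in scaling.

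SLC39A10, the partner gene (ENSG00000196950, chromosome 2, 195575977 to 195737702), gave 1343, 1288 and 1323 normalised reads in EMEM/F12 and 1567, 1668 and 1613 in HPLM. Every HPLM library lay above every EMEM/F12 library. The log2 ratio was 0.29 ± 0.03, with an adjusted p of 4.21e-06 in the authors' deposited table. The ratio of SLC39A6 to SLC39A10 reads was 1.37 ± 0.0348 in EMEM/F12 and 1.21 ± 0.0414 in HPLM. Its libraries did not overlap between media, and the exact two-sided permutation p was 0.1, the smallest that 3 against 3 libraries can give.

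SLC39A14 encodes an importer of zinc, iron and manganese (ENSG00000104635, chromosome 8, 22367249 to 22434129). It gave 4182, 3965 and 3872 normalised reads in EMEM/F12 and 3926, 3814 and 4099 in HPLM. The media overlapped, with a log2 ratio of -0.02 ± 0.04 and an adjusted p of 0.731 in the authors' deposited table.

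Other importer genes rose too. SLC39A9, which encodes an importer of the Golgi and the cell surface, rose from 1997 ± 20.7 to 3443 ± 10.2 normalised reads, a log2 ratio of 0.79 ± 0.01 (adjusted p = 2.78e-58 in the authors' deposited table). SLC39A7, which encodes the importer that releases zinc from the endoplasmic reticulum, rose from 3101 ± 59.4 to 3603 ± 40.5 normalised reads (log2 ratio 0.22 ± 0.02). SLC39A3, a surface importer gene, rose by 0.23 ± 0.08 on the log2 scale.

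Of the importer genes, 3 fell. SLC39A1 went from 2214 ± 63.6 to 1627 ± 46.1 normalised reads (log2 ratio -0.44 ± 0.03). SLC39A8, which encodes an importer of zinc, manganese and cadmium, went from 167 ± 9.41 to 87.7 ± 3.80 normalised reads (log2 ratio -0.92 ± 0.06). SLC39A4, known for intestinal zinc uptake, went from 119 ± 15.7 to 65.9 ± 7.28 normalised reads (log2 ratio -0.85 ± 0.14). SLC39A11 (0.03 ± 0.07) and SLC39A13 (0.05 ± 0.03) did not pass. Of the 11 measured SLC39 genes 4 rose, 3 fell and 4 did not pass, with a median log2 ratio of 0.05. Over both transporter families 63.2% of 19 genes passed, against 55.6% of all genes. Among all genes with a mean of at least 100 normalised reads, a level most of the 19 reached, 67.8% passed. The 63.2% lies between these shares and is not read as a result about the 19 genes.

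**Figure D3:**
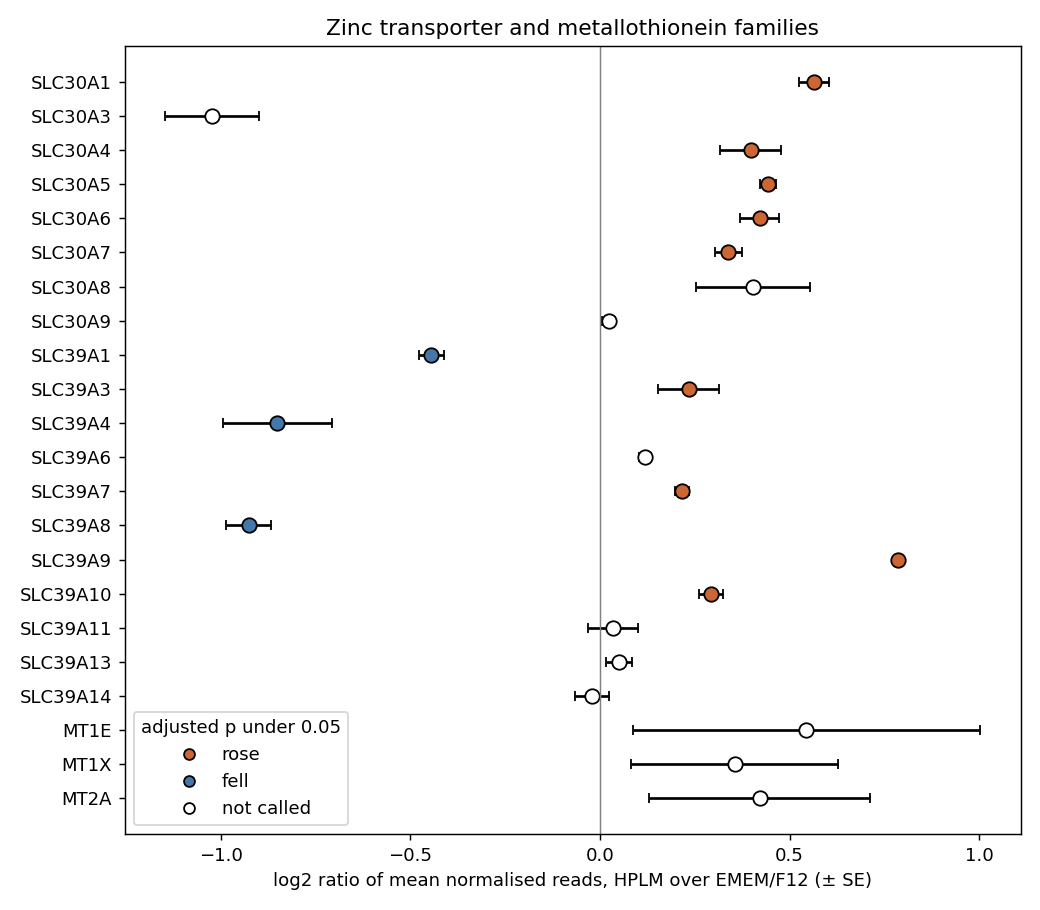
Log2 ratio of mean normalised reads, HPLM over EMEM/F12 (horizontal axis, bars are SE over 3 libraries per medium), for the 22 measured genes of the 3 families. Filled points passed at an adjusted p under 0.05 in the authors' deposited table, orange for higher and blue for lower in HPLM, and open points did not. SLC39A9 is highest at 0.79, and SLC39A1, SLC39A4 and SLC39A8 are the 3 that fell.

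MTF1 itself (ENSG00000188786, chromosome 1, 37809567 to 37859620) gave 298, 256 and 269.6 normalised reads in EMEM/F12 and 342, 343 and 361 in HPLM. The media did not overlap, and the log2 ratio was 0.35 ± 0.07. The authors' deposited table gives an adjusted p of 0.00677. The call was kept under 14 of the 15 alternatives and lost with the library number as a block (DESeq2 adjusted p = 0.0617), a fit in which 45.0% of all genes passed and 21.5% were higher.

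MT2A stood at a like level in HPLM and in EMEM/F12 library 3, and lower in EMEM/F12 libraries 1 and 2, while MT1E and MT1X had few reads and a wide spread. MT2A encodes the most abundant of the 3 metallothioneins measured here (ENSG00000125148, chromosome 16, 56608199 to 56609497). It gave 309, 353 and 579 normalised reads in EMEM/F12 libraries 1, 2 and 3, and 562, 564 and 536 in HPLM libraries 1, 2 and 3. EMEM/F12 library 3 thus lay above all HPLM libraries, while the other two lay below them all. The means were 414 ± 144.5 and 554 ± 15.3, and the log2 ratio was 0.42 ± 0.29, with an adjusted p of 0.196 in the authors' deposited table.

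Without EMEM/F12 library 3 MT2A was called higher in HPLM, with a DESeq2 log2 fold change of 0.74 ± 0.10 and an adjusted p of 9.44e-13. In that fit 59.8% of all genes passed, with 29.3% higher. Without EMEM/F12 library 1 or 2 the MT2A log2 fold change was 0.25 or 0.32 and did not pass. In the libraries 300, 304 and 558 reads of MT2A stood behind the EMEM/F12 values and 591, 613 and 600 behind those of HPLM. The exact 95% Poisson interval was 271 to 340.2 reads in EMEM/F12 library 2 and 513 to 606 in library 3, so the gap was wider than counting error, which is all these intervals cover. With all libraries edgeR gave an adjusted p of 0.0529 and limma, on log2 of the normalised value plus 1, gave 0.0424.

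MT1E (ENSG00000169715, chromosome 16, 56625475 to 56627112) gave 23.7, 20.9 and 46.7 normalised reads in EMEM/F12 and 46.6, 56.1 and 30.4 in HPLM. The order of the libraries resembled that of MT2A, but HPLM library 3 lay lower. The log2 ratio was 0.54 ± 0.46, with an adjusted p of 0.217 in the authors' deposited table. Without EMEM/F12 library 3 the DESeq2 log2 fold change was 0.99 ± 0.38, with an adjusted p of 0.0164.

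MT1X (ENSG00000187193, chromosome 16, 56682424 to 56684196) was the lowest, at 17.5, 17.4 and 24.9 normalised reads in EMEM/F12 and 24.7, 32.2 and 19.7 in HPLM. The media overlapped, and the authors' deposited table gives an adjusted p of 0.495. Without EMEM/F12 library 3 it was 0.291 by DESeq2. Only 15 to 35 reads per library stood behind these values. The 95% Poisson interval ran from 8.40 to 24.7 reads at 15 and from 24.4 to 48.7 at 35, so a modest difference in MT1X was not detectable at this depth. Among all genes with a mean under 100 normalised reads, 28.5% passed in the authors' deposited table, against 67.8% of those with a mean of at least 100.

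In all, 0 of the 3 measured metallothionein genes passed in the authors' deposited table, also 0 at an unadjusted p under 0.05. By edgeR 0 passed, by limma 1 and by DESeq2 without EMEM/F12 library 3, 2. Summed over the 3 genes, EMEM/F12 libraries 1 to 3 held 350.4, 392 and 650.2 normalised reads and HPLM libraries 1 to 3 held 633, 653 and 586. MT2A made up 86.5% to 91.5% of the sum in every library, so the sum followed MT2A. The other 9 listed metallothionein genes were not analysed here.

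EMEM/F12 library 3 exceeded the mean of libraries 1 and 2 by 0.80 on the log2 scale for MT2A, 1.03 for MT1E and 0.49 for MT1X, each computed with 1 added to the values. Of the genes with a mean of at least 100 normalised reads, 1.58% lay as high or higher than MT2A in this library. MT2A libraries of HPLM differed from the mean of the other two by -0.07 to 0.04. MT1X and MT1E, with few reads, also varied within HPLM, where library 2 stood at 0.52 for MT1X and 0.53 for MT1E and library 3 at -0.51 and -0.74. Their differences in EMEM/F12 library 3 are thus not set apart from their spread in HPLM as that of MT2A is. The transporter genes and MTF1 did not share the step of MT2A. Their differences ran from -0.09 for SLC30A1 to 0.04 for SLC30A5, around a median of -0.04 over genes with a mean of at least 100. SLC30A1, like MT2A a known target of MTF1, was thus highest in HPLM and low in all 3 EMEM/F12 libraries, while MT2A was high in EMEM/F12 library 3 too.

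By Pearson correlation of log2 values over the 6 libraries, the genes most like MT2A among 11054 with a mean of at least 100 were ARSJ, HLA-B, EMP3, TNC and LTBP2, with r of 0.998 to 0.999. HLA-B encodes a class I histocompatibility antigen, TNC the matrix protein tenascin C and LTBP2 a TGF-beta binding protein of the matrix. HLA-B gave 297, 351 and 747 normalised reads in EMEM/F12 and 684, 693 and 657 in HPLM. TNC gave 444, 563 and 1951 in EMEM/F12 and 1853, 1821 and 1742 in HPLM. The 6 libraries share 2 media and 1 library that stood apart, and an r over 0.9 with MT2A was reached by 2.83% of genes.

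All 6 fibroblast markers were in the table, and 4 of them stepped with MT2A. COL1A1, a collagen gene, gave 21276, 22731 and 53749.7 normalised reads in EMEM/F12 and 46585, 48410.0 and 43007 in HPLM. COL1A2, COL3A1 and DCN were also highest in EMEM/F12 library 3 and overlapped between media. PDGFRB gave 6625, 6704 and 6124 in EMEM/F12 and 2308, 2390.1 and 2299 in HPLM, and LUM was likewise lower in HPLM with no step in EMEM/F12 library 3. None of the 6 markers was at 0. The 10 adrenergic markers summed to 219344 normalised reads in EMEM/F12 library 3, against 258871 and 256972 in libraries 1 and 2. The part of these differences in the metallothionein values was not tested. In bulk RNA, a change in the share of cells and a change in RNA per cell cannot be told apart.

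**Figure D4:**
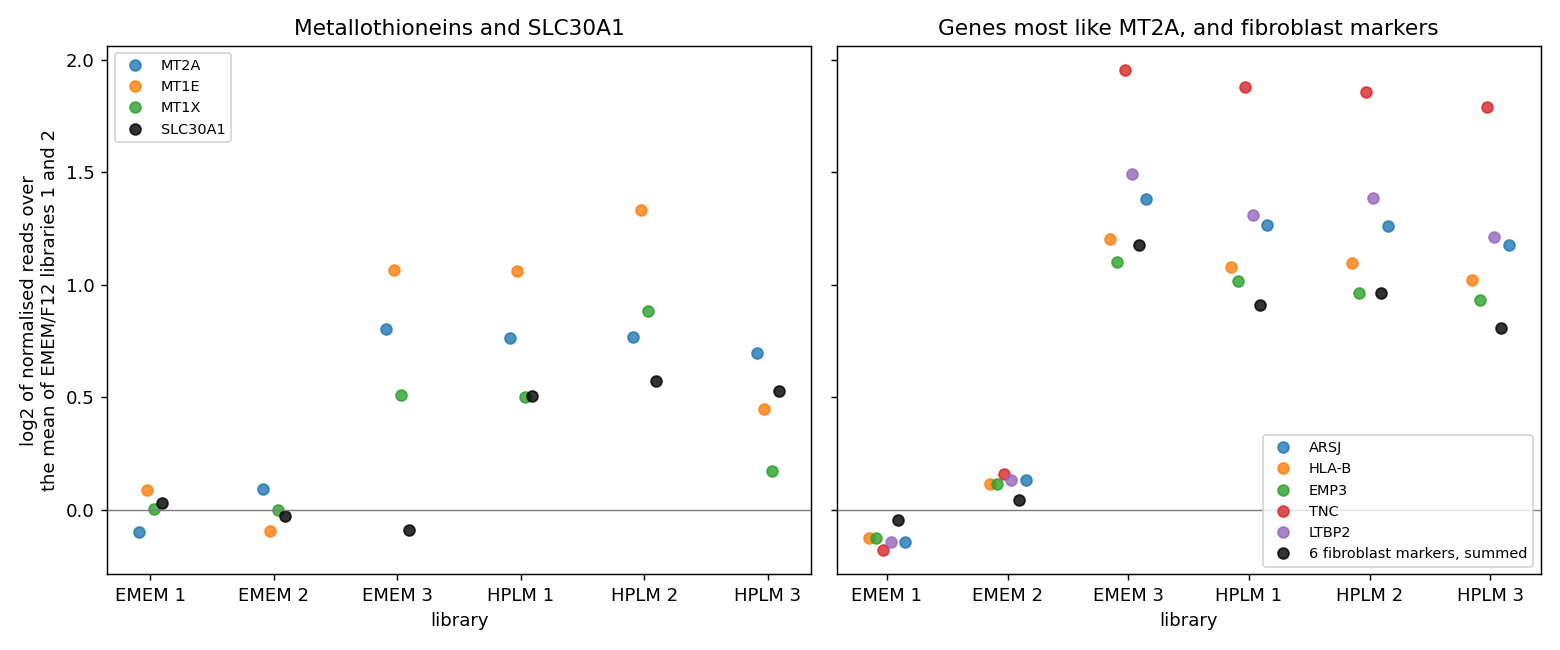
Log2 of normalised reads in each library over the mean of EMEM/F12 libraries 1 and 2 (vertical axes), by library (horizontal axes), for the metallothioneins and SLC30A1 on the left and for the 5 genes most like MT2A and the summed fibroblast markers on the right. In EMEM/F12 library 3 MT2A and all series on the right stand near or above their HPLM values, SLC30A1 does not, and MT1E and MT1X are spread widely in HPLM. Among the summed markers, PDGFRB and LUM showed no such step.

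For SLC30A1 the genes of closest pattern were UBXN2B, SCN3A, SGK1, BAMBI and CADM1, all with an r of 0.999. SGK1 encodes a serum- and glucocorticoid-induced kinase and BAMBI a decoy receptor of TGF-beta family ligands. SGK1 gave 1405, 1381 and 1342 normalised reads in EMEM/F12 and 1837, 1935 and 1882 in HPLM. Any gene that rose with little spread comes close to such a pattern, and 28.7% of genes reached an r over 0.9 with SLC30A1.

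Between genes, levels were compared as normalised reads per kilobase of annotated exon. The annotated exons of MT2A and MT1X, 1299 and 1773 bases, cover each gene from end to end. Sequence spliced out of some transcripts can count there as length, so the levels and ranks of MT2A and MT1X may be too low. In EMEM/F12 SLC39A14 was highest at 577 ± 22.9 per kilobase, followed by SLC39A6 at 489.7 ± 7.41 and MT2A at 319 ± 111. SLC30A5 (216 ± 3.85), SLC30A9 (209 ± 4.57) and SLC39A10 (191 ± 4.04) came next, then SLC30A1 at 123 ± 5.01. MTF1 (34.2 ± 2.68), MT1E (28.9 ± 13.4) and MT1X (11.3 ± 2.41) were lowest. MT2A and SLC30A5, SLC30A5 and SLC30A9, and MTF1 and MT1E were neighbours whose SD ranges overlapped. In HPLM SLC39A10, at 234 ± 7.29 per kilobase, stood above SLC30A9 at 212 ± 0.596, and MT2A reached 427 ± 11.8. With the longest transcript as the length, SLC39A10 also came level with SLC30A9 in EMEM/F12, and MT1E ranked above MTF1.

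Some reads of these genes are uncertain. Of all 50-base windows in the annotated transcripts of MT1X, 18.3% also occur in transcripts of another gene, mostly the overlapping transcript AC026461.1. The share was 7.10% for MT1E and 3.02% for MT2A, where the sister gene MT1G was the main partner, and 7.09% for SLC30A5. It was at most 0.891% for each of the other 6 genes.

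Of 4 described MTF1 targets outside the families, HAMP and PGF moved in opposite directions. HAMP, the gene of the iron hormone hepcidin, rose from 6.64 ± 4.56 to 53.6 ± 4.90 normalised reads. Its EMEM/F12 libraries 1, 2 and 3 gave only 6.18, 2.32 and 11.4 normalised reads. HAMP was called in all 15 alternatives, but the size of its rise is uncertain, with log2 fold changes of 1.97 to 3.62. PGF, which encodes placental growth factor, fell from 1329.6 ± 71.7 to 724 ± 19.3 normalised reads (log2 ratio -0.88 ± 0.05, adjusted p = 5.36e-33 in the authors' deposited table). SELENOH, a selenoprotein gene, fell by 0.37 ± 0.07 on the log2 scale, and GCLC, which encodes the catalytic subunit of the first enzyme of glutathione synthesis, was at 0.10 ± 0.04 and did not pass in the authors' deposited table, while edgeR with TMM scaling called it (adjusted p = 0.0249).

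Of 5 measured genes of zinc enzymes made in the secretory pathway, ENPP2 rose and 2 fell. ENPP1, which encodes a pyrophosphatase of the cell surface, overlapped between media and did not pass in the authors' deposited table (adjusted p = 0.128). It was called higher in only 1 of the 15 alternatives, DESeq2 without EMEM/F12 library 3 (log2 fold change 0.97, adjusted p = 0.00679). ENPP2, which encodes the lysophospholipase autotaxin, rose from 7385 ± 222 to 10223.6 ± 168 normalised reads (log2 ratio 0.47 ± 0.03). NT5E, which encodes the ecto-nucleotidase CD73, fell from 988 ± 86.3 to 425 ± 6.18 normalised reads (log2 ratio -1.22 ± 0.07), and ALPL, the tissue-nonspecific alkaline phosphatase gene, fell from 42.5 ± 6.26 to 19.1 ± 4.03 (log2 ratio -1.15 ± 0.21). Of 6 other zinc handling genes TRPM7, which encodes a channel kinase, rose (log2 ratio 0.16 ± 0.03), and its call was lost under 6 of the 15 alternatives. These were the fits without EMEM/F12 library 1 or 2 (DESeq2 adjusted p = 0.0515 and 0.107), without HPLM library 1 or 2 (0.0956 and 0.0890), with spike-in scaling (0.224) and with the library number as a block (0.134). In this list 0 were called lower in the authors' deposited table, 0 at an unadjusted p under 0.05, 0 by edgeR with TMM scaling and 0 by limma. MCOLN1, which encodes a lysosomal cation channel, was called lower only without EMEM/F12 library 3 (DESeq2 adjusted p = 0.0140). CBWD5 was called lower under 3 of the 15 alternatives. These were edgeR with DESeq2 size factors (adjusted p = 0.0481), spike-in scaling (DESeq2 adjusted p = 0.0497) and without EMEM/F12 library 1 (DESeq2 adjusted p = 0.0299).

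Metallothioneins also bind copper, and of 12 copper handling genes 1 rose and 4 fell. COMMD1 and SLC31A2 did not pass in the authors' deposited table (adjusted p = 0.0544 and 0.148). Without EMEM/F12 library 3 COMMD1 was called higher (DESeq2 adjusted p = 0.0180) and SLC31A2 lower (DESeq2 adjusted p = 0.0353). SLC31A2 passed in only this 1 of the 15 alternatives. COMMD1 passed under 6 of the 15 alternatives, among them edgeR with TMM scaling (adjusted p = 0.00929) and limma (adjusted p = 0.0110). The copper importer gene SLC31A1 rose from 3576 ± 113 to 4057 ± 112 normalised reads (log2 ratio 0.18 ± 0.04), not called with spike-in scaling. SOD1, which encodes the copper and zinc superoxide dismutase, fell from 2766 ± 35.6 to 1887 ± 31.6 normalised reads (log2 ratio -0.55 ± 0.02). SCO2, a copper chaperone gene of cytochrome oxidase, fell by 0.35 ± 0.04 on the log2 scale. The list passed in 41.7% of its genes, with a median log2 ratio of -0.21, beside 55.6% and 0.0086 for all genes.

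**Figure D5:**
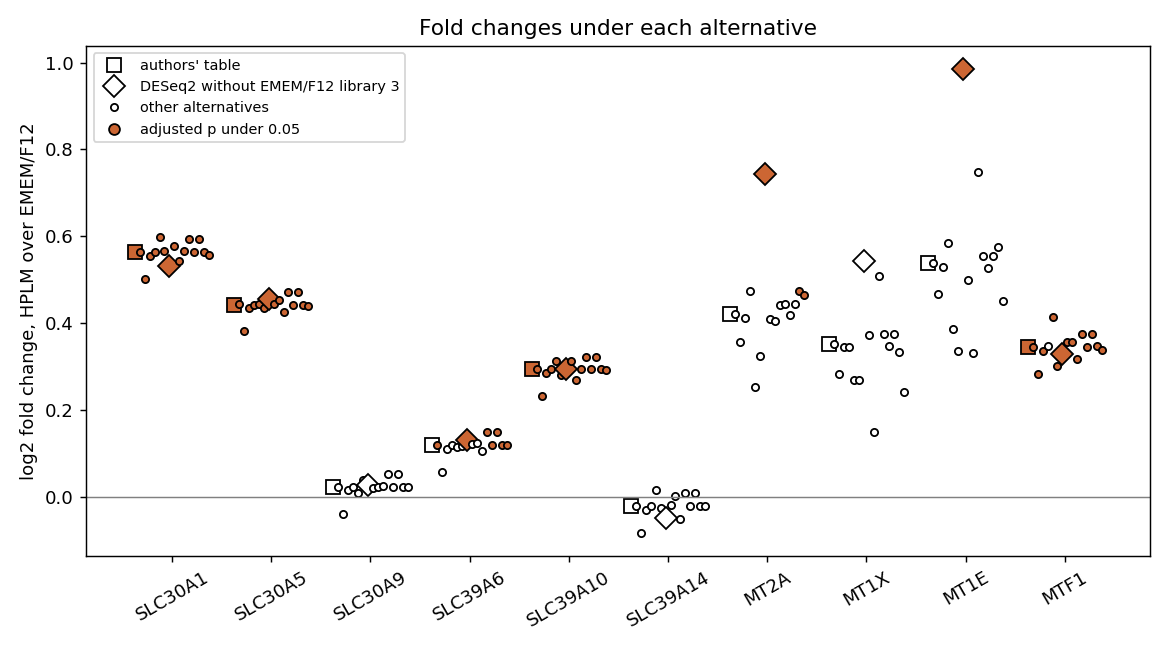
Log2 fold change of HPLM over EMEM/F12 (vertical axis) of the 10 genes in the authors' deposited table (squares), in DESeq2 without EMEM/F12 library 3 (diamonds) and in the other 14 alternatives (circles), filled where the adjusted p was under 0.05. SLC30A1, SLC30A5 and SLC39A10 are filled throughout, and the MT2A diamond stands at 0.74 against 0.42 for its square.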

How the data were processed

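Polyadenylated RNA of BE(2)-C cells was sequenced from libraries made with a TruSeq version 2 kit, per the labels' protocols. The submitters' processing notes name build GRCh38 and, without roles, the tools DESeq2, Subread 1.5.2, STAR 2.5.2b and Trimmomatic 0.36. The authors deposited 1 table with 16051 lines, of which 46 are spike-ins. Per the file headers it gives log2 fold changes of DESeq2, each with a p-value and an adjusted p-value, computed by the authors. The signal deposited in the 6 library columns is the read number over 1 scaling factor per library, as its steps show. Whole reads were recovered for 100% of the deposited values within 0.01 reads. DESeq2 1.42.0 refitted on them called 8908 lines, all of them also called by the authors. edgeR 4.0.16 called 10266 genes on those reads. The 3 columns per medium match 1 listed sample, so the authors' test is the main one.

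From the deposited values, means, SDs and log2 ratios of means with propagated SEs were computed with Python 3.11.15 and scipy 1.17.1. Alternatives used DESeq2, edgeR and limma 3.58.1, and the DESeq2 fit was tested on simulated data. Coordinates and exon lengths are from GENCODE release 29 on GRCh38. Within a medium the chi-square per degree of freedom between libraries was 1.40 to 9.84, above sampling noise. The pairs with EMEM/F12 library 3 gave 9.84 and 8.39, and all other pairs 1.40 to 2.41. The lowest total in the table was 61 reads, and genes below it were not analysed here. A count of 0 allows 3 reads, or 2.68 to 3.49 normalised reads.

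The 10 genes and the lists were chosen with earlier results of these data known. All 10 are named, other genes of the 3 families may be named, up to 2 called genes per direction are named from each other list, and the 5 genes of highest correlation with SLC30A1 and MT2A. MCOLN1, CBWD5, ENPP1, COMMD1, SLC31A2 and GCLC were named after their values were seen. Of the motif, only the 2 stated forms were searched.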

Additional observations from a re-analysis of the deposited data

How the results depend on the processing

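Fits of 15 alternatives were run for each of the 10 genes. Of the 150 values, 133 kept their direction and their side of the threshold. SLC30A1, SLC30A5 and SLC39A10 were called in all 15. Between 4 and 7 of the 10 genes were called when each library was left out in turn, and the 7 came without EMEM/F12 library 3. The summed metallothionein log2 ratio of 0.43 ranged from 0.26 to 0.75 in the same way, with 0.75 without EMEM/F12 library 3. Leaving out a library also leaves fewer libraries for the spread. The sign turned for 2 genes that were never called. SLC30A9 stood at -0.040 with spike-in scaling. SLC39A14, at -0.02 in the authors' deposited table, ranged from -0.051 to 0.015 when each library was left out, with 0.015 without EMEM/F12 library 1 and 0.00093 without HPLM library 2. It stood at 0.0078 and 0.0079 by edgeR with TMM without and with a filter on low counts. The median log2 fold change over all genes was 0.0085 in the DESeq2 refit, -0.054 with spike-in scaling and 0.037 by edgeR with TMM. The cause of the turned signs was not tested. With the library number as a block 3 of the 10 genes were called, and 7197 of all genes. The labels carry no such numbers. Deviations of same-numbered libraries from their medium's means correlated at -0.05, -0.13 and -0.20, and those of differently numbered libraries at -0.14 to 0.19. With 3 libraries per medium and EMEM/F12 library 3 apart, these values cannot decide whether the numbers pair the libraries. Counts over the families and over all listed genes stayed within 1.5 times the main count under every alternative tried.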
